A study of Homo sapiens with 4 samples.

Results

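The genes of the proteasome and of its inducible variant, the immunoproteasome, were followed in HaCaT, an immortalised human keratinocyte line. Members were chosen by symbol alone, as every gene named PSM, one letter from A to G and a number, and 46 of the 27356 genes with a row met this rule. GENCODE 29 lists 48 such genes, and the other 2, the germline subunit PSMA8 and the thymic subunit PSMB11, were not analysed here. All cells were of the same line, kept in medium with fetal bovine serum, and received either phosphate-buffered saline (PBS, 2 libraries) or M5 (2 libraries) for 72 h. M5 is a mix of 5 cytokines, IL-1α, IL-17, IL-22, TNF-α and Oncostatin M, at 10 μg/L each. The treatment tag of the M5 libraries names another agent, abbreviated DAC, whereas their titles and the protocols name M5, and the titles were followed. Nothing in the labels says that replicates were separate cultures, so a p-value here speaks of library-to-library spread only, and that spread may be technical.

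The proteasome is the main protease of the cytosol and nucleus and degrades proteins tagged with ubiquitin. Its barrel-shaped core, the 20S particle, has outer rings of α subunits (PSMA) and inner rings of β subunits (PSMB), of which PSMB5, PSMB6 and PSMB7 carry the active sites. The 19S regulator, made of a ring of ATPases (PSMC) and further subunits (PSMD), binds ubiquitin chains and unfolds the substrate. In cells exposed to interferon or other inflammatory cytokines PSMB8, PSMB9 and PSMB10 take the places of PSMB5, PSMB6 and PSMB7, and the activator made of PSME1 and PSME2 docks on the core. The immunoproteasome is known for cutting peptides that class I molecules present to T cells.

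Each library held between 15858644 and 19749612 counts. All 8 keratinocyte markers were tested, with a summed level of 3359 to 3388 FPKM in PBS and 4112 to 4443 FPKM in M5. FPKM is the count scaled by gene length and library total, and is used below wherever genes are compared with one another. Summed leukocyte markers were at 2.21 to 2.96 FPKM in PBS and 5.53 to 6.46 FPKM in M5, most of it from CD14, while PTPRC and MS4A1 were not analysed here and CD3E had at most 2 counts per library. Summed fibroblast markers were at 0.428 to 0.704 FPKM, endothelial markers at 0.281 to 0.644 FPKM and melanocyte markers at 1.40 to 2.40 FPKM. The melanocyte sum was lower in M5 through MITF, with 222 and 224 counts in PBS and 136 and 128 in M5. PMEL (20 and 17 counts in PBS, 26 and 26 in M5) and MLANA (8 and 8, then 20 and 10) were not lower. COL1A2, COL3A1, KDR, EMCN and TYR were not analysed here. Whether the leukocyte or melanocyte markers play a part in any change below was not tested. In a bulk sample, more cells of one state and more RNA per cell cannot be told apart.

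The promoters of 4 inducible genes hold the same letters, shown because they are the interferon response element that this gene set is known for. The promoter table (RefSeq, GRCh38.p14) covers 250 bases before to 50 bases after each start and matched 40 of the 46 members. The core of the element was searched on both strands as GAAA, any 2 bases and GAAA, and 3.57% of all 35116 promoter windows hold it. Of the 49 windows of members 7 hold it, those of PSMB8, PSMB10, PSME1, PSME2, PSMG4, PSMA4 and PSMB4. The windows of 30 bases below are written on the gene's own strand, with the match in capitals. TTTCGCTTTC is the same element read from the opposite strand, and all 5 windows shown carry the one sequence GAAAGCGAAA.
PSMB8, chr6:32844032-32844061 (-): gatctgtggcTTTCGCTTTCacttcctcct
PSMB10, chr16:67936852-67936881 (-): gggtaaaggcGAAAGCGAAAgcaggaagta
PSME1, chr14:24136189-24136218 (+): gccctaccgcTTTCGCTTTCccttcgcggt
PSME2, chr14:24146619-24146648 (-): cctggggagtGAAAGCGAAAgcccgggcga
PSMG4, chr6:3258904-3258933 (+): ttccggggccGAAAGCGAAAgcgcgctcgg

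The match begins 6 bases after the start in PSME1, 4 bases before it in PSMB8 and between 21 and 33 bases before it in PSMB10, PSME2 and PSMG4. For PSMB9 these letters are not in this window. A match is a stretch of letters, and no binding was measured here.

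Only 2 of the 5 inducible genes, PSMB10 and PSME1, had enough reads to test, and PSME1 rose. PSMB8, which replaces PSMB5 (ENSG00000204264, chromosome 6, 32840717 to 32844703, GRCh38), had 0 and 135 counts in PBS replicates 1 and 2 and 0 counts in both M5 libraries. All its reads therefore lie in a single PBS library, and it is the 1 gene among all 27356 with at least 100 counts in one library and 0 in the other 3, a feature chosen after its values were seen. PSMB9, which replaces PSMB6 (ENSG00000240065, chromosome 6, 32844136 to 32859585), had 1 count in PBS replicate 1 and 0 counts in the other 3 libraries. A count of 0 allows up to 3 counts, or 0.160 to 0.179 CPM depending on the library (CPM is the count scaled by the library total and edgeR's TMM factor), for counting error only. Neither gene reached the mean of 1 FPKM needed for testing. Without that filter PSMB8 was called lower in M5 (edgeR adjusted p = 0.0275), a call that rests on PBS replicate 2 alone. The immunoproteasome part of the gene set is thus not shown by its defining markers in these tables, and the members are treated below as proteasome genes by symbol.

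PSME1, the α chain of the activator (ENSG00000092010, chromosome 14, 24136158 to 24138967), had 27 and 44 counts in PBS and 185 and 386 counts in M5. Both M5 libraries are above both PBS libraries, and they differ from each other as well. The level went from 2.11 ± 0.699 CPM to 15.4 ± 7.24 CPM (SD, n = 2), a 7.29-fold rise with a log2 fold change of 2.87 (SE 0.30) and an adjusted p of 1.29e-07 by edgeR's quasi-likelihood test. The adjusted p was far larger, though still under 0.05, with edgeR's robust fit (0.00227) and with limma on log2(FPKM + 1) (0.00219). The M5 libraries lay 2.00-fold apart, which 0.749% of the 2271 tested genes with a mean of 5 to 20 CPM reached, against a median of 1.12-fold. Leaving out each library in turn gave log2 values between 2.29 and 3.29. Its partner PSME2, the β chain (ENSG00000100911, chromosome 14, 24143362 to 24147570), had 16 and 23 counts in PBS and 15 and 28 counts in M5. The groups overlap, and with a mean of 0.324 FPKM PSME2 fell under the filter. Without the filter its log2 value was 0.03 (edgeR adjusted p = 0.982), at counts too few to show a change of moderate size, and 52.4% of its transcript has a near-identical match in a pseudogene.

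**Figure D1:**
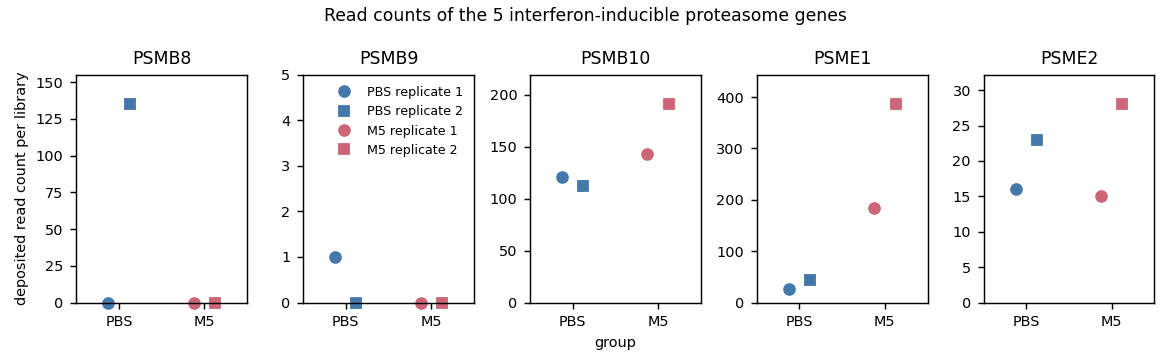
Deposited read counts (y axis, its own range in each panel) of PSMB8, PSMB9, PSMB10, PSME1 and PSME2 in the 4 libraries, circles for replicate 1 and squares for replicate 2. PSMB8 has 135 counts in PBS replicate 2 and 0 elsewhere, PSMB9 has 1 count in all, and PSME1 has 185 and 386 counts in M5 against 27 and 44 in PBS.

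PSMB10, which replaces PSMB7 (ENSG00000205220, chromosome 16, 67934502 to 67937087), was the one inducible catalytic subunit with enough reads to test. It had 121 and 112 counts in PBS and 143 and 191 counts in M5, or 7.24 and 6.63 CPM against 7.96 and 10.2 CPM. The groups do not overlap, but the log2 fold change of 0.39 (SE 0.19) did not pass (edgeR adjusted p = 0.0908). Without M5 replicate 1 it was 0.56 and passed, with an adjusted p of 0.0284, and over all alternatives the adjusted p ran from 0.0284 to 0.465. Set against its partner per gene length, PSMB10 made up 2.78% and 2.43% of the summed FPKM of PSMB10 and PSMB7 in PBS and 2.47% and 2.99% in M5. The groups overlap. The log2 ratio of PSMB10 to PSMB7 was -5.23 ± 0.14 in PBS and -5.16 ± 0.20 in M5 (SD, n = 2), a difference of 0.06, which is under either SD. No p is given, since 2 against 2 libraries cannot reach 0.05 by permutation. For the other 2 pairs the share of the inducible partner was 2.14% in PBS replicate 2 and 0 in the other libraries for PSMB8 with PSMB5, and 0.0181% in PBS replicate 1 and 0 in the others for PSMB9 with PSMB6.

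Low counts were found outside the inducible genes too. PSMB3, a structural subunit of the inner ring, had 0, 0, 1 and 0 counts in PBS replicates 1 and 2 and M5 replicates 1 and 2, and the ATPase PSMC4 had 0, 0, 0 and 2. Both are subunits that every proteasome is known to contain. The α subunits PSMA2 and PSMA6, which every core also contains, and the 19S assembly chaperone PSMD9 lay between 0.214 and 0.439 FPKM over all libraries. A low value in these tables therefore does not by itself show that a gene is off, PSMB8, PSMB9 and PSME2 included.

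Among the members, low levels went with certain features of the annotation. Levels of other genes with these features are not reported here. In GENCODE 29, 7 members have at least 1 transcript outside the primary genome assembly, as on an alternate sequence of the region. Their mean levels ran from 0.00472 to 79.5 FPKM, and 6 of the 7 were under 8 FPKM, namely PSMB3, PSMB8, PSMB9, PSMC4, PSME1 and PSME2. PSMB1, with 1 such transcript against at least 6 in each of the others, was at 79.5 FPKM. Of the other members 5, PSMA1, PSMA2, PSMA6, PSMB10 and PSMD9, share at least 5% of their exon bases with a different gene on the same strand, and they ran from 0.274 to 4.89 FPKM. The remaining 34 members ran from 2.54 to 230 FPKM with a median of 26.0, and 2 of them, the chaperones PSMG2 and PSMG4, were under 8 FPKM. The gene length behind the deposited FPKM departs from GENCODE 29 for some members, which shifts their FPKM. For PSMG2 it was 12490 bases against 3356 exon bases in GENCODE 29, and for PSMD1 15795 against 5187. For PSMG4 the lengths were close, at 10415 and 10418. Near-identical matches in other genes were not used to form these classes. Such matches cover 97.7%, 53.5% and 50.8% of the transcripts of PSMC1, PSMC6 and PSMD7, which are among the 34, at 13.5, 17.1 and 26.0 FPKM. In PSME2 and the 5 members with same-strand overlap they cover 40.9% to 82.6%. In those 5 members the matching genes are the overlapping genes themselves. The matches of PSMC1 include NRDE2 and that of PSMD7 is AC009120.2, which lie opposite them at the same place. Such a match is therefore not always a copy elsewhere in the genome. How the authors' counting treated reads with several alignments or in shared exons is not given in the sources used here, and the part of these features in the values was not tested. PSME1 and PSMB10, the tested inducible genes, both belong to the 12 members with such a feature.

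**Figure D2:**
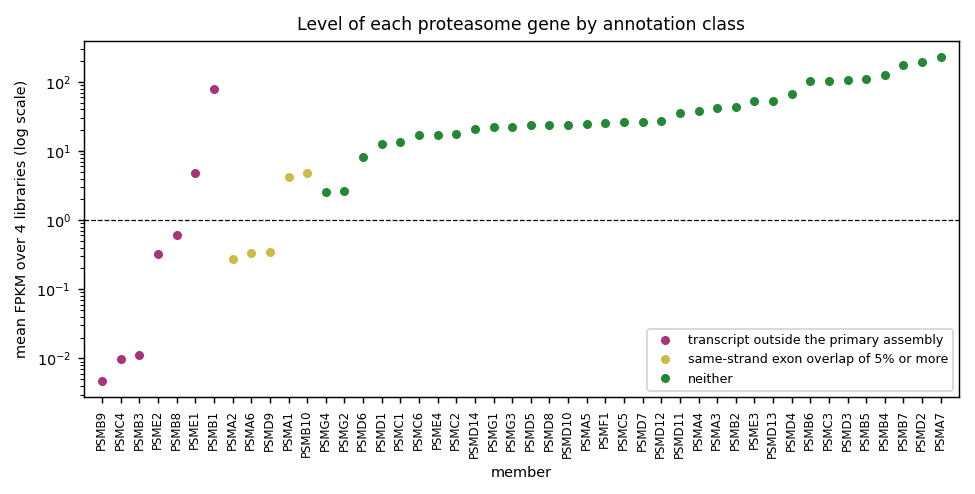
Mean FPKM over the 4 libraries (y axis, log scale) of each of the 46 members (x axis), sorted within 3 annotation classes, with a dashed line at the 1 FPKM needed for testing. The 34 members with neither feature all lie above the line, and 8 of the 12 others lie below it.

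Low counts were also listed for several related genes, singled out after their values were seen. TAP1 and TAP2, the peptide transporter genes beside PSMB8 and PSMB9 on chromosome 6, had at most 1 and 2 counts per library. IRF9, an interferon response factor, had at most 1 count per library. The class I gene HLA-E had at most 5, the loading factor TAPBP at most 11, and the widely expressed chaperone CANX 16 to 38.

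Of the 46 members, 38 reached a mean of 1 FPKM and were tested. With M5, 11 rose and 5 fell at an adjusted p under 0.05 in edgeR's quasi-likelihood test, so 42.1% of the tested members were called, against 55.9% of all 10809 genes tested. By direction, 28.9% of members rose against 28.8% of all genes, and 13.2% fell against 27.1%. The median log2 fold change was 0.07 over the members and -0.01 over all tested genes. In size, 31 of 38 members (81.6%) lay within 1.2-fold, against 46.1% of all tested genes. Only PSME1 and PSMD2 passed with at least 1.5-fold (5.26%), against 22.0% of all tested genes in either direction. Of the 31 constitutive subunits 27 were tested, of which 9 rose and 1 fell, with a median of 0.07 and 24 (88.9%) within 1.2-fold. Of the 5 inducible genes 2 were tested, PSMB10 at 0.39 and PSME1 at 2.87. Libraries of the groups did not overlap for 29 members (76.3%), which is close to the 77.2% over all tested genes.

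Scaling moved the split between directions. Library totals, used instead of TMM factors, gave 3 higher and 15 lower, and TPM scaling, in which FPKM sum to the same total in every library, gave 3 and 16. The median of all tested genes then lay at -0.16 and -0.19 instead of -0.01. PSMB7, PSMD2 and PSME1 were called higher, and PSMG1, PSMG2, PSMG3 and PSMG4 lower, under each of the 4 scalings. Small changes of other members are therefore relative to the TMM reference. Without PBS replicate 1 the counts were 4 higher and 3 lower, and without PBS replicate 2 they were 7 and 2.

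**Figure D3:**
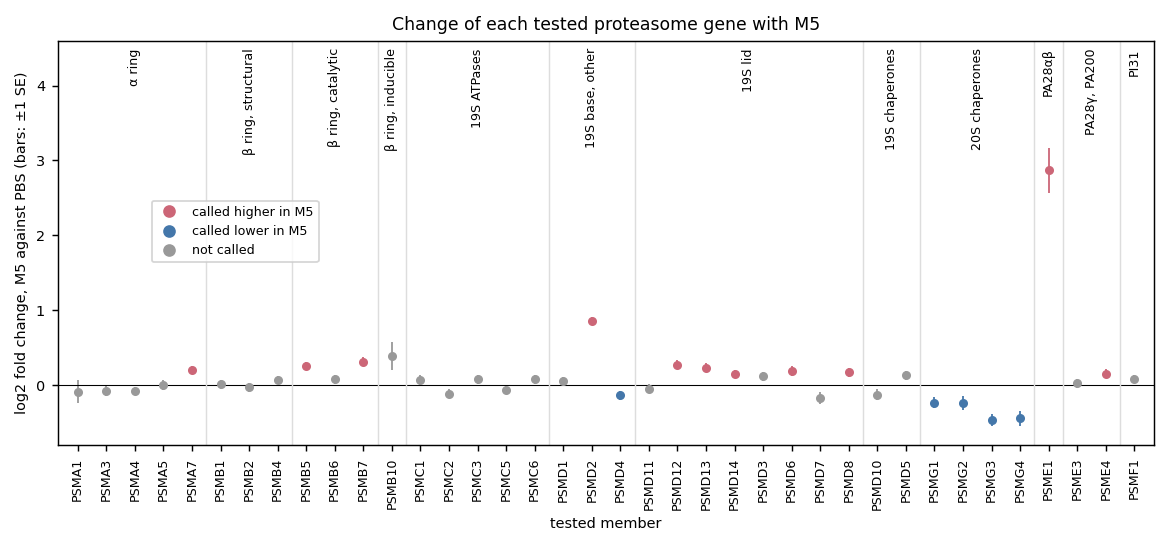
Log2 fold change of M5 against PBS (y axis, points with ±1 SE from the edgeR fit) for the 38 tested members (x axis), grouped by role and coloured by call. PSME1 at 2.87 and PSMD2 at 0.86 stand above the rest, and the 4 chaperones of the 20S core lie between -0.47 and -0.24.

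In the 20S core, 2 of the 3 catalytic subunits and 1 α subunit rose. Of the 11 tested constitutive core subunits 27.3% thus rose, close to the 28.8% over all tested genes. PSMB7, which cuts after basic residues (ENSG00000136930, chromosome 9, 124353466 to 124415444), stood at 278 and 293 CPM in PBS and 346 and 363 CPM in M5, without overlap. It rose 1.24-fold, or by 0.31 on the log2 scale (SE 0.06), with an edgeR adjusted p of 9.53e-05. The rise was smaller, though still called, with library totals (0.16, edgeR adjusted p = 0.0169) and with TPM scaling (0.13, edgeR adjusted p = 0.0463). With limma on log2(FPKM + 1) it was 0.16 (limma adjusted p = 0.0372). PSMB5, which cuts after hydrophobic residues, stood at 154 and 162 CPM in PBS and 192 and 186 CPM in M5. It rose by 0.26 on the log2 scale (SE 0.06, edgeR adjusted p = 0.00095), but was at 0.10 and did not pass with library totals (adjusted p = 0.123) or at 0.07 with TPM scaling (adjusted p = 0.276). It also missed the threshold without PBS replicate 1 (adjusted p = 0.0539), and over all alternatives its adjusted p ran from 1.38e-05 to 0.276. PSMB6, which cuts after acidic residues, stood at 143 and 143 CPM in PBS and 147 and 155 CPM in M5. Its log2 value of 0.07 did not pass (edgeR adjusted p = 0.29), and it was -0.076 with library totals and -0.11 with TPM scaling. Without M5 replicate 1 it was 0.12 and passed (adjusted p = 0.0444, with 0.0444 to 0.598 over all alternatives). In M5 the means of these 3 genes ran from 99.0 to 188 FPKM, next to 5.29 ± 0.931 FPKM for PSMB10.

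None of the 3 tested structural β subunits was called, with log2 values from -0.03 for PSMB2 to 0.07 for PSMB4. Of 5 tested α subunits, which gate the entry to the core, 1 was called. PSMA7 stood at 374 and 375 CPM in PBS and 440.1 and 425 CPM in M5, a log2 value of 0.21 (edgeR adjusted p = 0.00272). It was at 0.056 with library totals and 0.026 with TPM scaling and did not pass under either, nor with limma. The other 4 lay between -0.09 and 0.00. With library totals and with TPM scaling PSMA3, PSMA4, PSMB1 and PSMB2 were called lower. PSMA7 was also the most abundant member per length in PBS, at 225 ± 0.244 FPKM, followed by PSMB7 at 168 ± 5.97 and PSMD2 at 149 ± 0.266 FPKM. In M5 PSMD2 reached 243 ± 5.27 FPKM beside 234 ± 4.76 for PSMA7. Their M5 libraries ran from 239.6 to 247 FPKM and from 231 to 238 FPKM, close together but without overlap.

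In the 19S regulator PSMD2 had the largest change among the tested subunits. PSMD2 (ENSG00000175166, chromosome 3, 184298709 to 184309054) encodes the large base subunit also called Rpn1, a docking site for shuttle factors and for the deubiquitinase USP14. It stood at 701 and 700.2 CPM in PBS and 1295 and 1248.5 CPM in M5. All M5 values lie above all PBS values, at 1.81-fold the level, with a log2 fold change of 0.86 (SE 0.05) and an adjusted p of 4.08e-11 by edgeR's quasi-likelihood test. Over leaving out each library the log2 value stayed between 0.84 and 0.89. The other 2 base subunits outside the ATPase ring were PSMD1 at 0.06, not called, and PSMD4, a ubiquitin receptor, at -0.14. PSMD4 passed narrowly (edgeR adjusted p = 0.0479) and was not called with median-of-ratios scaling or DESeq2. With library totals, TPM scaling and limma on log2(FPKM + 1) PSMD4 was called lower, at log2 values of -0.289, -0.319 and -0.284. None of the 5 tested ATPases was called, with log2 values from -0.12 for PSMC2 to 0.08 for PSMC6, but PSMC2 and PSMC5 were called lower with library totals and with TPM scaling. PSMC1 among them is uncertain, since 97.7% of its transcript has a near-identical match in other genes. These include NRDE2, which is also the gene opposite 75.8% of its exon bases, so these figures are not independent.

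Of 8 lid subunits 5 rose, all by 1.21-fold or less, and none fell, where 28.8% of all tested genes rose and 27.1% fell. PSMD12 stood at 135 and 133 CPM in PBS and 157 and 166 CPM in M5, a log2 value of 0.27 (edgeR adjusted p = 0.000671). PSMD13 stood at 211 and 220 CPM in PBS and 249.5 and 257 CPM in M5, a log2 value of 0.23 (edgeR adjusted p = 0.00154), and did not pass without PBS replicate 1 (adjusted p = 0.0700, with 8.20e-06 to 0.429 over all alternatives). PSMD6, PSMD8 and PSMD14, the last of which is the deubiquitinase of the lid, had log2 values of 0.19, 0.17 and 0.15, of which PSMD8 and PSMD14 turned to -0.013 and -0.032 with TPM scaling. None of these 3 passed with DESeq2. PSMD7, with 30.7% of its exon bases opposite another gene, was at -0.17 with groups that overlap, and PSMD3 and PSMD11 at 0.11 and -0.05. Under library totals and TPM scaling none of the lid subunits was called higher and PSMD7 and PSMD11 were called lower.

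The 4 assembly chaperones of the 20S core, which pair as PSMG1 with PSMG2 and PSMG3 with PSMG4 and help build the α ring, all fell, where 27.1% of all tested genes fell. PSMG3 (ENSG00000157778, chromosome 7, 1567330 to 1571005) stood at 48.1 and 52.5 CPM in PBS and 37.2 and 35.5 CPM in M5. It was 1.38-fold lower, or -0.47 on the log2 scale (SE 0.08), with an edgeR adjusted p of 0.000105. PSMG4 stood at 29.9 and 30.5 CPM in PBS and 21.5 and 22.8 CPM in M5, 1.36-fold lower (edgeR adjusted p = 0.000841). Its promoter is among those shown above. PSMG1 stood at 51.3 and 51.0 CPM in PBS and 43.2 and 43.6 CPM in M5, a log2 value of -0.24 (edgeR adjusted p = 0.0144). PSMG2 stood at 36.8 and 35.2 CPM in PBS and 32.1 and 29.1 CPM in M5, also at -0.24 (edgeR adjusted p = 0.0397). Groups overlap for none of the 4. PSMG1 and PSMG2 did not pass with DESeq2. PSMG1 also did not pass without PBS replicate 1 (adjusted p = 0.0738) or without PBS replicate 2 (0.0609), with 0.000195 to 0.0738 over all alternatives. The library kit does not mark strand, and PSMG2, PSMG3 and PSMG4 have antisense neighbours over 16.7%, 3.1% and 15% of their exon bases, whose reads cannot be told apart. The chaperones of the 19S base, PSMD5 at 0.13 and PSMD10 at -0.13, were not called, although PSMD10 was called lower with library totals and with TPM scaling.

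**Figure D4:**
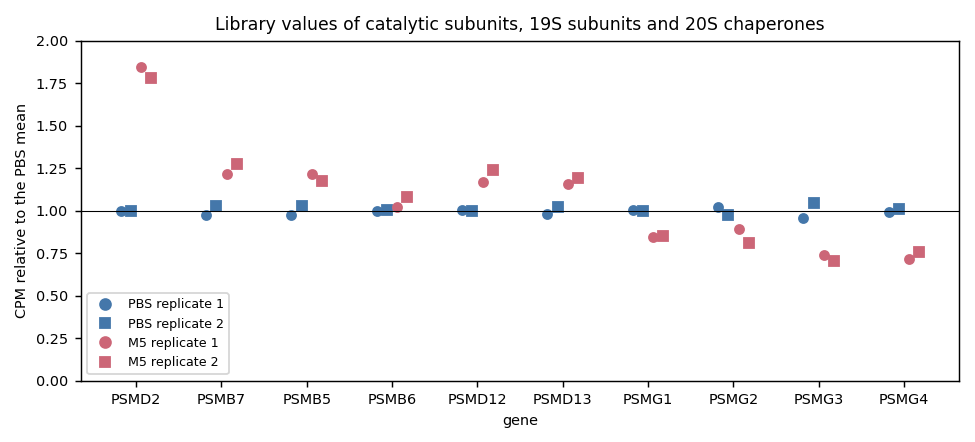
CPM of each library divided by the PBS mean of the gene (y axis) for 10 members (x axis), blue for PBS and red for M5, circles for replicate 1 and squares for replicate 2. PSMD2 lies near 1.8 in both M5 libraries, and the 4 PSMG genes lie below 1 in both.

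Among the remaining regulators, PSME4, the nuclear activator PA200, rose from 172 and 169 CPM to 187 and 191 CPM (log2 value 0.15, edgeR adjusted p = 0.0256), and was not called with library totals or TPM scaling. PSME3, the nuclear relative of PSME1, was at 0.02 (edgeR adjusted p = 0.777) and was called lower with library totals and with TPM scaling, and PSMF1, the inhibitor PI31, at 0.08 (edgeR adjusted p = 0.227). PSME3 was at 54.9 ± 1.44 FPKM in PBS and 50.2 ± 1.08 FPKM in M5 (SD, n = 2). PSME1 was at 0.959 and 1.54 FPKM in the PBS libraries and at 8.24 ± 3.90 FPKM in M5, and it is among the members with transcripts outside the primary assembly.

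Most tested genes of the related lists, which lack a PSM symbol, rose. Besides partners of the proteasome and ubiquitin genes, these lists cover the NFE2L1 pathway, inducers of the immunoproteasome and class I loading. They were chosen with earlier results of these data known. Over 5 lists with 58 genes, 47 were tested, of which 35 rose (74.5%, against 28.8% of all tested genes) and 5 fell (10.6%, against 27.1%). With library totals or TPM scaling 26 rose and 11 fell, and with limma 24 rose and 8 fell. Of 10 other subunits, associated enzymes and assembly factors 6 rose and 2 fell. UBE3C, a ubiquitin ligase of the proteasome, rose by 0.57, POMP, the maturation factor of the 20S core, by 0.53, and USP14 by 0.25, whereas the base chaperone PAAF1 fell by 0.42 and the deubiquitinase UCHL5 by 0.20. With library totals or TPM scaling 2 of this list rose and 4 fell. Of 10 ubiquitin genes, shuttles and the activating enzyme 6 rose and 2 fell, and under those scalings 2 rose and 4 fell. UBQLN2 rose by 0.59 and the ubiquitin gene UBB by 0.47, and the shuttle UBQLN4 fell by 0.34.

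Of 8 genes of the NFE2L1 pathway, known for raising proteasome genes when proteasome activity drops, 6 rose and 1 fell, or 6 and 2 with library totals or TPM scaling. Of all tested genes 28.8% rose and 27.1% fell. NFE2L1 itself stood at 320 ± 3.71 CPM in PBS and 640 ± 28.3 CPM in M5 (SD, n = 2), or 1.00 on the log2 scale (SE 0.05), with an edgeR adjusted p of 1.21e-11. Its dimer partners MAFF and MAFK rose by 1.53 and 0.93, and DDI2, the protease known to activate it, fell by 0.25. Over the same libraries the tested constitutive subunits, 27 of 31, had a median log2 value of 0.07. The ARE core, searched as TGACNNNGC on both strands, was found in 15 of the 49 promoter windows of members, against 13.3% of all promoter windows. Among the genes with it, PSME1, PSMD12 and PSME4 rose, PSMG1 and PSMG2 fell, and PSMA4, PSMC5, PSMD1, PSMD3 and PSMD5 were not called. The rest were under the filter. PSMD2 and PSMB5, which rose, and PSMG4, which fell, have windows without it. The motif GAS was found in 7 of the 49 windows, against 7.66% of all, and a form of NF-kB in 1, against 1.91%. Whether NFE2L1 acts on any member was not tested.

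Of 11 tested factors and receptors known for inducing the immunoproteasome 10 rose and 0 fell, under all 4 scalings, where 28.8% of all tested genes rose and 27.1% fell with TMM. The interferon γ receptor chain IFNGR1 rose by 1.88 and STAT3 by 1.04, and IRF1 was at 42.5 ± 1.10 CPM in PBS and 63.0 ± 1.84 CPM in M5, a log2 value of 0.57 (edgeR adjusted p = 3.19e-06). Of 8 tested genes of peptide trimming and class I loading 7 rose and 0 fell, or 6 and 1 with library totals or TPM scaling. HLA-B rose by 1.44, B2M by 1.04 and the trimming peptidase ERAP2 by 0.63. TAP1, TAP2 and TAPBP, which carry and load the peptides, had at most 11 counts in any library and were not tested.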

How the data were processed

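RNA with poly(A) tails from HaCaT cells was sequenced in 4 libraries. Each deposited file gives, per the file headers, a read count per gene and an FPKM value made by the authors. HISAT2, HTSeq 0.13.5 and GRCh38 are named in the submitters' processing notes. Annotation release and strand setting: not given in the sources used here. Genes whose FPKM averaged 1 or more were tested on the deposited counts with edgeR 4.0.16 (glmQLFit and glmQLFTest, TMM scaling, two-sided) in R 4.3.3, with Benjamini-Hochberg adjustment over 10809 genes and a threshold of 0.05. The SE was taken from the log2 fold change and its F statistic. On simulated data, with 50 genes changed at each size, the test recovered 52% at 1.25-fold and 82% at 1.5-fold. False calls made up 4.6% of its calls. Far fewer genes changed there than were called in the real data. A member that was not called may thus still have a small change. Replicates of a group differed by more than counting noise. Gene positions and overlaps are from GENCODE 29.

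The members and gene lists were chosen with earlier results of these data known. Values in every library are given for the 5 inducible genes, their 3 partners and the 3 largest rises and falls among other called members. PSMA7, PSMG2, PSME4, PSMB3 and PSMC4 were added after their values were seen, as was IRF1. Of related lists, up to 3 called genes per direction are named, and some genes under this rule are not reported here. Alternatives were other scalings and filters, limma 3.58.1 on log2(FPKM + 1) and log2(FPKM + 0.1), DESeq2 1.42.0, a robust fit, a replicate block, each library left out and an adjusted p of 0.01. The count of members without an annotation feature was added after seeing the data.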

Additional observations from a re-analysis of the deposited data

How the results depend on the processing

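PSME1, PSMD2, PSMB7, PSMG3 and PSMG4 kept their direction and their call under every alternative in which they were tested, and the log2 value of PSMB10 stayed positive. PSMB10 passed in 1 alternative, at 0.56 without M5 replicate 1, and leaving out each library gave 0.20 to 0.56. The log2 value of PSMB6 was -0.0763 with library totals, -0.107 with TPM scaling, and -0.0763 and -0.0770 with limma at a pseudocount of 1 and 0.1. The members called higher and lower, 11 and 5, were 3 and 15 with library totals, 3 and 16 with TPM scaling, 3 and 14 with limma on either scale, and 7 and 2 at an adjusted p of 0.01. A mean of at least 5 FPKM gave 7 higher, no filter 3 lower (PSMB8 among them), and DESeq2 2 lower. Leaving out each library gave 4 to 15 members higher and 2 to 5 lower, with the fewest higher without PBS replicate 1. Among the 34 members with neither annotation feature, 10 were higher and 5 lower. The 35 related genes called higher were 26 with library totals or TPM scaling, 24 with limma on either scale, 28 to 34 without 1 library and between 29 and 36 under the remaining alternatives. The 5 called lower were 11 with library totals or TPM scaling, 8 with limma on either scale, 3 without a filter, with DESeq2 or at an adjusted p of 0.01, and 3 to 7 without 1 library. The cause of these changes was not tested beyond the shift of the median with the scaling. The PSMB10 to PSMB7 difference of 0.06 ran from -0.08 to 0.20 without 1 library; the other pairs have libraries at 0 and give no ratio. Same-numbered libraries did not deviate together (correlation -0.01), and with a replicate block 11 members were higher and 5 lower. PSMB9, PSMB3 and PSMC4, at 2 counts or fewer per library, allow no statement on change, and the cause of their low counts was not tested.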
